A study of Mus musculus with 6 samples.

Results

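Connexins are the membrane proteins of gap junctions, and 6 of their genes known from decidua, blood vessels and heart are described here, Gja1, Gja4, Gja5, Gjb2, Gjb5 and Gjc1. They were picked by gene symbol from the count tables of mouse embryo libraries, which hold 24421 symbols each. All 6 symbols were present and all 6 passed the filter on low counts, as did 13848 symbols in total. The libraries came from C57BL/6N mice at embryonic day 9.5, the tissue being labelled whole embryo. There were 3 wild type libraries and 3 libraries homozygous for a knockout (KO) of Lphn2, the adhesion receptor gene now called Adgrl2. The labels do not give the deleted part of the gene, the litters, or whether 1 library equals 1 embryo, so p-values reflect only how these samples varied, and that variation may be technical.

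A ring of connexins in one cell membrane docks with a ring in the next and opens a channel for ions and small metabolites between the cells. The alpha member Gja1 (Cx43) is the most widespread connexin, abundant in the decidua, the transformed lining of the pregnant uterus. Gja4 (Cx37) and Gja5 (Cx40) couple endothelial cells of arteries, and Gja5 also serves the atria and the conduction system. The beta members Gjb2 (Cx26) and Gjb5 (Cx31.1) belong to epithelia and to the placental trophoblast, and Gjc1 (Cx45) is an early connexin of the heart tube and of smooth muscle. The comparison asks whether transcripts of these channel proteins differ when the receptor is lacking.

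Total counts lay between 14476809 and 36213611 per library. Levels are given in CPM, counts relative to library size after scaling by the trimmed mean of M-values (TMM), and the 3 values of a genotype follow the order of replicates 1, 2 and 3. Reads came from the 3' ends of transcripts, so levels are not per length and are not compared between genes. For Adgrl2 itself the wild type libraries gave 10.9, 7.56 and 15.96 CPM and the knockout libraries 5.49, 1.67 and 2.78 CPM, with no call (edgeR adjusted p = 0.194). Such tags can lie outside the deleted part, so these values do not check the labels. The libraries held maternal transcripts. The summed level of 12 decidual markers, all above 0 in every library, ran from 19040 to 35100 CPM in the wild type group and from 4464 to 9155 CPM in the knockout group, most of it Prl8a2 in all wild type libraries. That of 11 heart muscle markers was 40.8 to 371 CPM and 7.80 to 22.3 CPM, with Nkx2-5 at 0 in the 3 knockout libraries and in wild type replicate 2 and at 7 and 20 counts in wild type replicates 1 and 3. Knockout replicate 1 stood apart from the other 2 knockout libraries, with 3733 CPM of summed trophoblast markers against 52.7 and 146.3 CPM, and with 193.2 CPM of summed yolk sac markers against 25.3 and 38.4 CPM. Connexin fold changes that rest on it are given with and without it, while marker sums are given with it. In bulk RNA, fewer cells of a type and less RNA per cell cannot be told apart.

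No connexin of the 6 was called different between the genotypes (edgeR quasi-likelihood test, Benjamini-Hochberg adjusted p under 0.05 over all genes). The call rate over all 13848 genes was 0.0505%, which is 7 genes, all lower in the knockout. Gja1 and Gja5 had higher and the other 4 members lower group values in the knockout, with a median log2 fold change of -0.44 against -0.04 over all genes. Gja1 was the 1 member with an unadjusted edgeR p under 0.05, as were 15.5% of all genes tested. In none of the 6 did all knockout libraries lie on 1 side of all wild type libraries, while the groups were separate in 21.5% of the genes tested, 9.39% with the knockout lower and 12.1% with it higher.

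**Figure D1:**
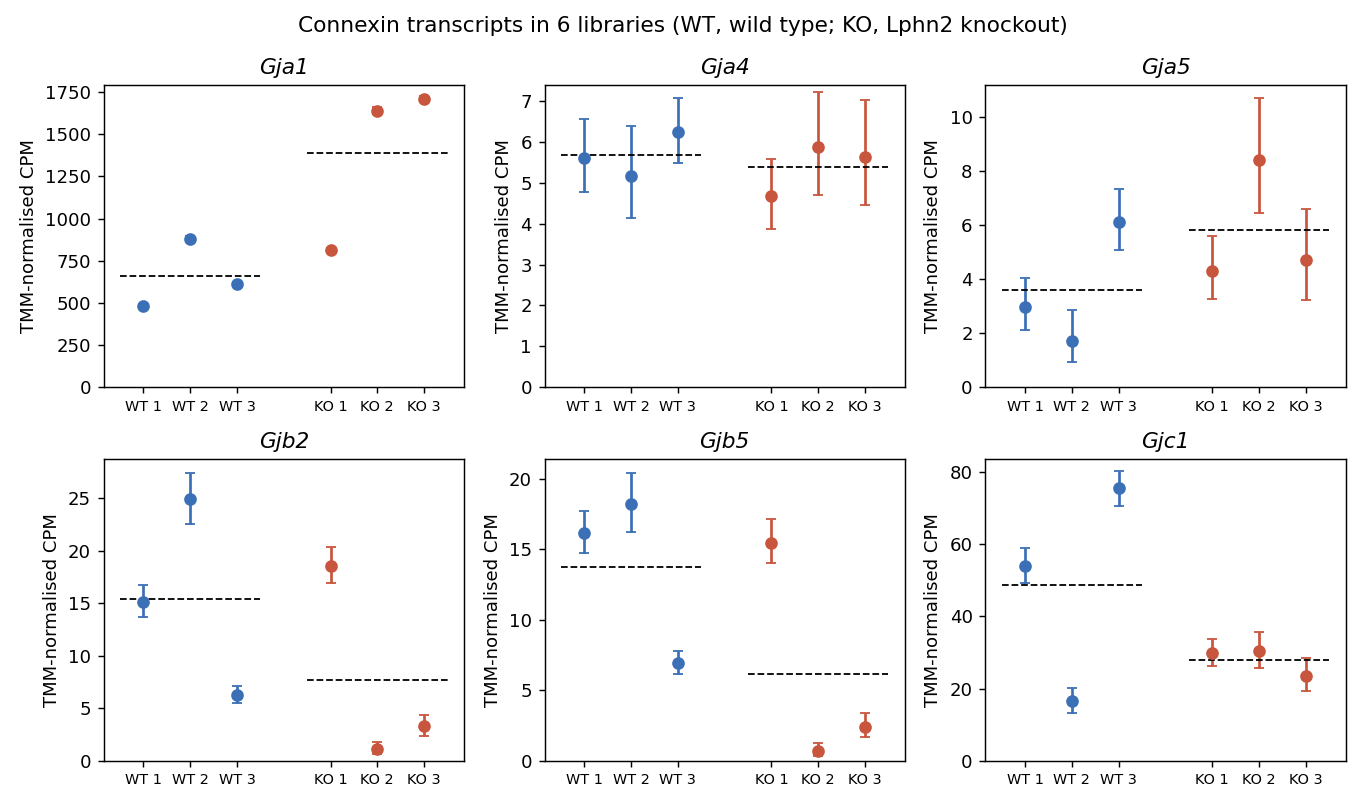
Level of each connexin in TMM-normalised CPM (vertical axis, from 0) in wild type (WT, blue) and knockout (KO, red) replicates 1 to 3, with 95% Poisson limits for counting error and dashed lines at the group means. Knockout replicates 2 and 3 stand high for Gja1 and low for Gjb2 and Gjb5, while knockout replicate 1 lies within the wild type range for all of these, and Gja4 differs little between libraries.

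Gja1 (ENSMUSG00000050953.10, mm10 chromosome 10, 56377330 to 56402513, plus strand) had 479.7, 879.8 and 611.8 CPM in the 3 wild type libraries. Its knockout values were 813.5, 1639 and 1707 CPM. The groups overlapped through knockout replicate 1, which lay below wild type replicate 2, while knockout replicates 2 and 3 lay above every other library. The means were 657 ± 204 and 1387 ± 497 CPM (SD, n = 3 each), a log2 fold change of 1.08 ± 0.35 (SE) that did not pass the threshold (edgeR, adjusted p = 0.23). The DESeq2 test called it higher (adjusted p = 0.0396), with 2.98% of 15237 genes called higher and 3.26% lower by that tool, and none of the other 5 members called. Over the 15 alternatives the log2 fold change of Gja1 stayed between 0.89 and 1.36 and the adjusted p between 0.0396 and 0.591. Without knockout replicate 1 it was 1.35 ± 0.295 (SE), just short of the threshold (edgeR adjusted p = 0.0556). Counting error was small beside the spread, with 95% Poisson limits of 1690 and 1730 CPM in knockout replicate 3.

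The decidual markers did not lie 1 way beside Gja1. Of the 12, 6 had higher and 6 lower values in the knockout, 0 were called, and the median log2 fold change was 0.0065. Prl8a2, Erv3, Prl3c1 and Fkbp4 were lower in every knockout library than in any wild type library, as were 9.39% of all genes. Prl8a2, a decidual prolactin that made up most of the sum in every library but knockout replicate 2, had 14990, 28750 and 17980 CPM in wild type against 2900, 1279 and 5335 CPM in the knockout. Bmp2, Wnt4, Hoxa10, Pgr and Hoxa11 lay the other way, with all knockout values above all wild type values, as for 12.1% of all genes, although Gja1 itself overlapped through knockout replicate 1. Hoxa10, a homeobox factor of the uterine stroma, had 469.9, 521.2 and 286.6 CPM against 667.5, 1013 and 957.3 CPM (log2 fold change 1.05 ± 0.28 SE, edgeR adjusted p = 0.184). Bmp2, a growth factor of the decidual reaction, had 99.2, 188 and 130.1 CPM against 252.4, 376 and 322.5 CPM (1.19 ± 0.28 SE, edgeR adjusted p = 0.172). These decidual genes were named after their values were seen, Prl8a2 excepted.

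Summed markers of other cell types that the libraries could hold are given beside Gja1 in the same way. The 8 endothelial markers, all above 0 in every library, summed to between 1236 and 2171 CPM in wild type, against 2007 to 2558 CPM in the knockout. All 8 had higher values in the knockout, 0 were called, and the median log2 fold change was 0.86. In 5 of them (Cdh5 and, named after their values were seen, Emcn, Tek, Eng and Tie1) the groups were separate. Over all genes tested, 12.1% had separate groups with the knockout higher. The 8 arterial markers summed to 117 to 154.2 and 161.4 to 216.7 CPM, so all knockout sums lay above all wild type sums. The groups were separate in 0 of these 8 markers, 4 of which were higher and 4 lower in the knockout. The 6 natural killer markers, also above 0 throughout, summed to 122.5 to 268.3 and 393 to 601 CPM. All 6 were higher in the knockout and 0 called, 5 of them with separate groups, beside the same 12.1% of all genes. The 6 smooth muscle markers, none at 0, summed to 1032 to 1771 and 2051 to 3583 CPM, with Des as the largest part in every library. Des encodes desmin, an intermediate filament protein that decidual stroma also holds, and had 1170, 1493 and 928.4 CPM in wild type against 2014, 3530 and 3538 CPM in the knockout. It was not called (log2 fold change 1.34 ± 0.29 SE, edgeR adjusted p = 0.166). The smooth muscle proteins Cnn1, Acta2, Tagln and Myh11 had lower means in the knockout, with 0 called and all 4 highest in wild type replicate 1. The part of these tissues in the Gja1 difference was not tested.

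The promoter of Gja1 is shown because AP-1, the Fos and Jun dimer, is a known regulator of this gene. Motifs were searched on both strands from 250 bases before to 50 bases after the RefSeq start of 5 members with an entry. The letters TGANTCA of AP-1 were found once in Gja1, beginning 19 bases before the start, and in none of the other 4 windows. They occur in 7.81% of 32851 promoters of this length. The 250 bases before the start follow, 5' to 3' on the plus strand (GRCm38.p6, chr10:56377050-56377299, RefSeq), with the match in capitals.
Gja1: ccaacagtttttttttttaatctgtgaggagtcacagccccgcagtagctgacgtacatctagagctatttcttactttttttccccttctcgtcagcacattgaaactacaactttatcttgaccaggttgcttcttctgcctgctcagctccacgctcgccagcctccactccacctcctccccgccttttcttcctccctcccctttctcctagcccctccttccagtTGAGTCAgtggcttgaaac

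Gjb2 and Gjb5 varied more between libraries than the other members and varied together. Gjb2 (ENSMUSG00000046352.7, chromosome 14, 57098600 to 57104702, minus strand), a connexin of uterine epithelium and of the transport layer of the mouse placenta, had wild type values of 15.1, 24.9 and 6.25 CPM. Its knockout values were 18.6, 1.13 and 3.28 CPM. Knockout replicate 1 thus lay among the wild type libraries, and knockout replicates 2 and 3 lay below all of them. The means of 15.4 ± 9.31 and 7.65 ± 9.50 CPM (SD, n = 3 each) differed by less than the spread within a group (log2 fold change -0.99 ± 0.95 SE, edgeR adjusted p = 0.648). Knockout replicate 2 held 17 Gjb2 counts, with 95% Poisson limits of 0.660 and 1.81 CPM.

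Gjb5 (ENSMUSG00000042357.2, chromosome 4, 127354809 to 127358181, minus strand) encodes a connexin of skin and of trophoblast. Wild type libraries held 16.1, 18.2 and 6.92 CPM of it, and knockout libraries 15.5, 0.667 and 2.42 CPM. The order of the 3 knockout libraries was the one seen for Gjb2, and the groups overlapped through the same library. The means were 13.8 ± 6.01 and 6.18 ± 8.08 CPM (SD, n = 3 each), with a log2 fold change of -1.13 ± 0.98 (SE) that missed the threshold (edgeR adjusted p = 0.612). Within the knockout group the highest library had 23.2 times the level of the lowest for Gjb5 and 16.4 times for Gjb2, against 2.63 and 3.98 times in wild type. Pearson's r between Gjb2 and Gjb5 was 0.99 over the 6 libraries on log2 CPM, given as a description. The log2 ratio of their counts, which no scaling between libraries can move, lay between -0.74 and 0.15 in all 6 libraries.

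Leaving out knockout replicate 1 moved both genes most. The log2 fold change became -2.81 ± 0.76 for Gjb2 and -3.15 ± 0.72 for Gjb5 (SE), still short of the threshold (edgeR adjusted p = 0.0854 and 0.0617). In that comparison of 3 with 2 libraries, 3.27% of 14249 genes were called lower. Over the 15 alternatives the adjusted p of Gjb2 ran from 0.0854 to 0.914 and that of Gjb5 from 0.0617 to 0.885. The plot of fold changes by setting shows this widest spread beside the narrower ones of the other members.

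**Figure D2:**
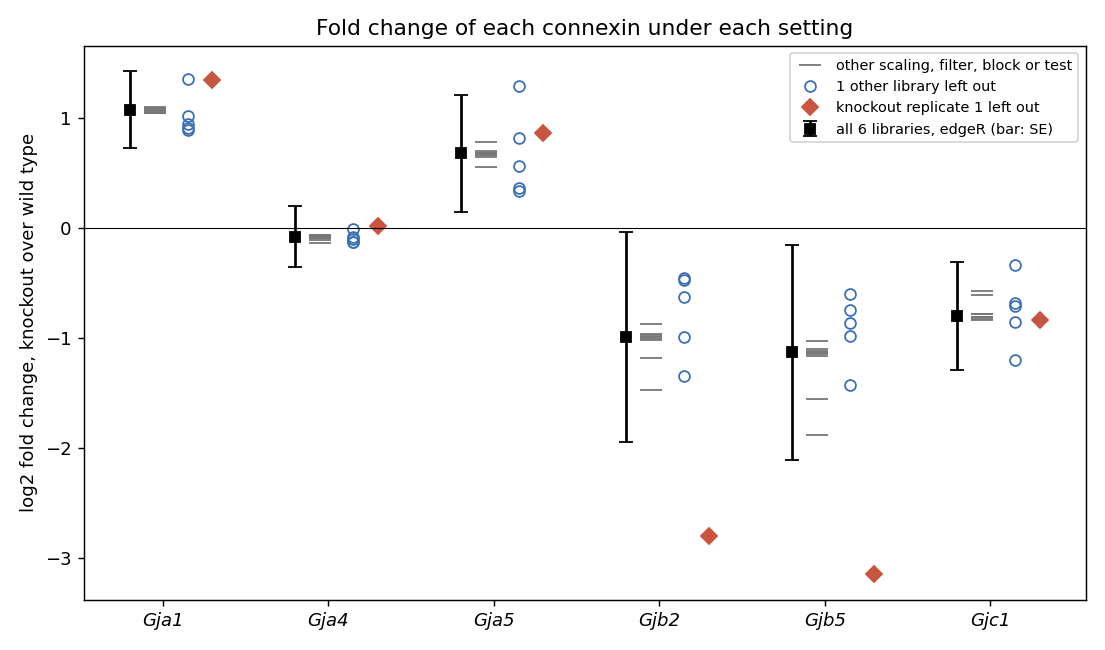
Log2 fold change of knockout over wild type (vertical axis) for each connexin with all libraries (black, bar SE), under another scaling, filter, block or test (grey dashes), with 1 library left out (open circles) and with knockout replicate 1 left out (red diamonds). For Gjb2 and Gjb5 the red diamonds lie at -2.81 and -3.15, far below the values with all libraries.

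Ranked by level, the libraries fell in 1 order for the trophoblast markers and for Gjb5, and Gjb2 differed from it by an exchange of wild type replicate 1 and knockout replicate 1. The summed level of 11 such markers, among them Tpbpa of the spongiotrophoblast, was 5049, 5934 and 1418 CPM in wild type. In the knockout it was 3733, 52.7 and 146.3 CPM. Prl3d1 and Prl2c2, hormones of trophoblast giant cells, made up most of it in every library. Of the 11 markers 7 were above 0 in every library, and Prl3b1, Gcm1, Synb and Elf5 were at 0 in at least 1. Wild type replicate 3, knockout replicate 2 and knockout replicate 3 were the 3 lowest libraries for the trophoblast sum, for Gjb2 and for Gjb5. Epithelial markers, 5 of 7 above 0 in every library, summed to 579.4, 654.9 and 302.7 CPM in wild type, against 670, 243.6 and 224.2 CPM in the knockout. Those 3 libraries were thus the lowest for the epithelial sum as well. Cdh1 made up the largest part, while the keratin Krt8, named after its values were seen, had 65.5, 81.7 and 21.9 CPM in wild type against 59.2, 2.60 and 1.78 CPM in the knockout. The part of the trophoblast and epithelial content in the 2 connexin differences was not tested.

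**Figure D3:**
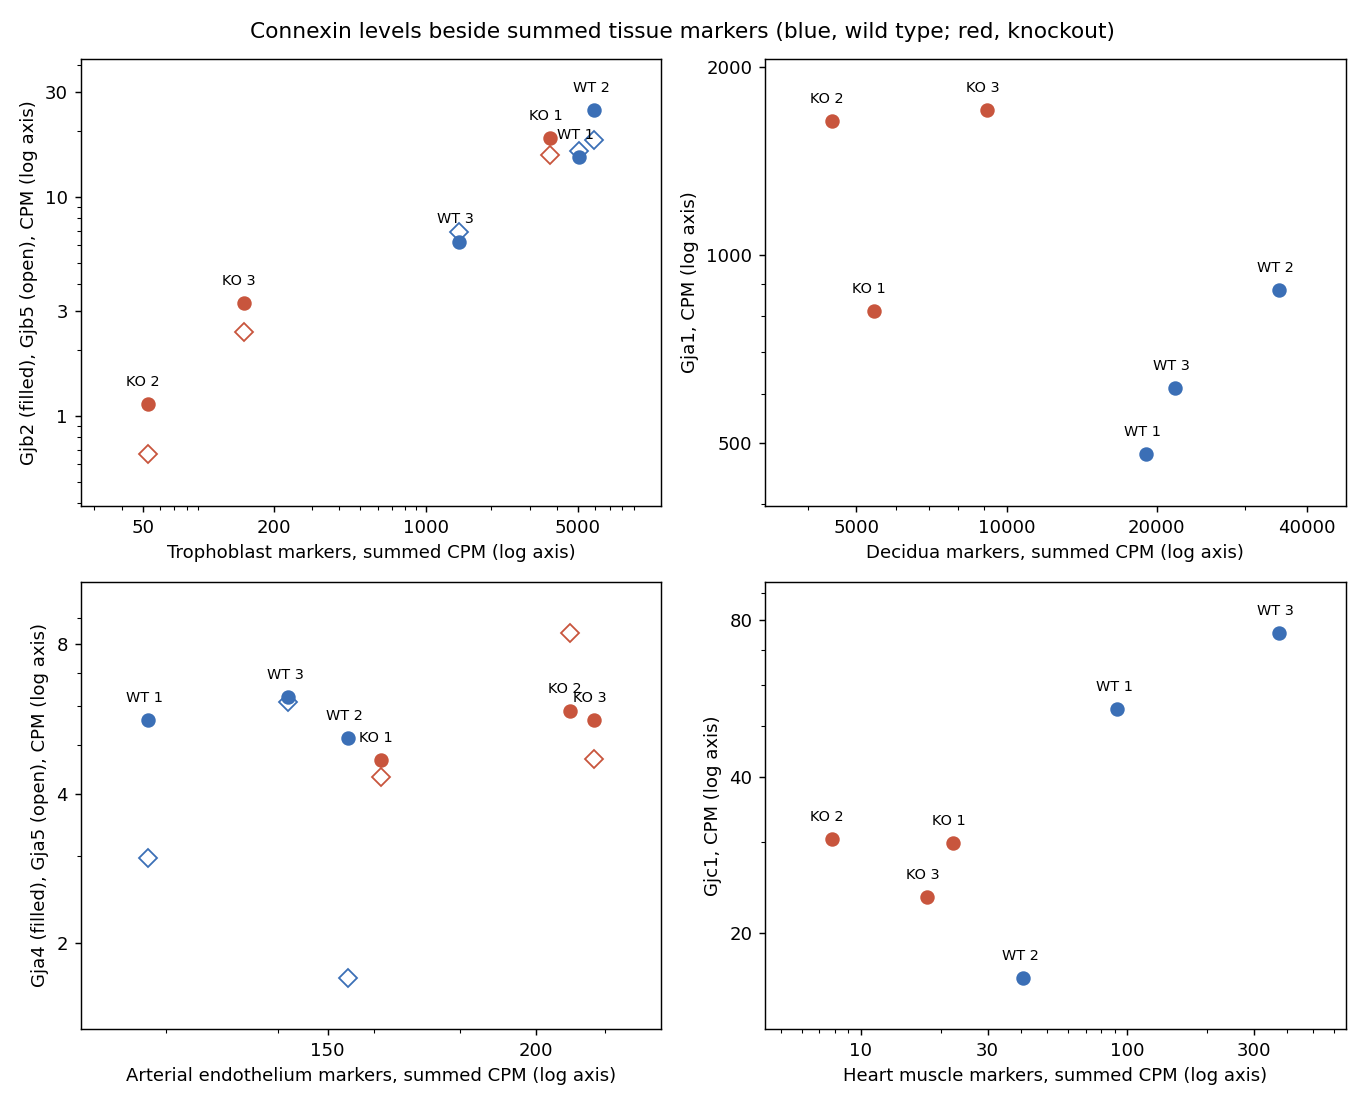
Connexin level (vertical axes, CPM) against the summed level of a marker list (horizontal axes, CPM), all on log axes, with 1 point per library, blue for wild type and red for knockout. Gjb2 and Gjb5 are low where the trophoblast sum is low. The decidual sum, mostly Prl8a2 in wild type, is lower in every knockout library. Gja1 stands highest in knockout replicates 2 and 3, but within the wild type range in knockout replicate 1, whose decidual sum lies between theirs. Gja4 changes little with the arterial sum, and Gjc1 is highest in wild type replicate 3, which has the highest heart muscle sum.

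The promoters of Gjb2 and Gjb5 are shown because the pair varied together. The letters GGGCGG of the GC box, bound by Sp1, occurred 2 times in Gjb2 and began 211 and 126 bases before the start. They did not occur in the window of Gjb5. Over all promoters of this length 35.7% hold the motif. Neither TNAAGTG, the letters of Nkx2-5, nor GGTGTGA, a T-box site, occurred in any of the 5 member windows, and 11.5% and 3.98% of all promoters hold them. The 250 bases before each RefSeq start follow, 5' to 3' on the minus strand (GRCm38.p6, chr14:57104703-57104952 for Gjb2 and chr4:127358165-127358414 for Gjb5), with GC box matches on either strand in capitals. The base composition differed, with 69.2% G and C in Gjb2 and 54.4% in Gjb5.
Gjb2: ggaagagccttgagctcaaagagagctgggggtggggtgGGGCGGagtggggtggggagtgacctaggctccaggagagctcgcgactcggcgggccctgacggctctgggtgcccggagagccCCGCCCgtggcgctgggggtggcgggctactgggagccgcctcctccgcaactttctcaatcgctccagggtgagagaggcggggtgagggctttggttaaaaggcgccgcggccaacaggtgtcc
Gjb5: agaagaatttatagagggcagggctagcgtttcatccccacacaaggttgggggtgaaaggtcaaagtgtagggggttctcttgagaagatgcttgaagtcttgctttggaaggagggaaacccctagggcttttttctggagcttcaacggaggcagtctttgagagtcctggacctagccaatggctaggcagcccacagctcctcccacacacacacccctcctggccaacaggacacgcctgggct

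Gja4 (ENSMUSG00000050234.7, chromosome 4, 127311421 to 127314039, minus strand), a connexin of arterial endothelium, was the most even member. The 3 wild type values were 5.62, 5.18 and 6.25 CPM, and the 3 knockout values 4.67, 5.87 and 5.63 CPM. The 2 ranges lay across each other, around means of 5.68 ± 0.536 and 5.39 ± 0.636 CPM (SD, n = 3 each). Its log2 fold change, -0.08 ± 0.28 (SE), was not called (edgeR adjusted p = 0.91) and was 0.020 without knockout replicate 1. With 79 to 239 counts per library, the 95% Poisson limits of knockout replicate 3 alone reached from 4.46 to 7.02 CPM, wider than the range of all 6 libraries.

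Gja5 (ENSMUSG00000057123.14, chromosome 3, 96904693 to 97077416, plus strand), the connexin of arteries and atria, gave 2.97, 1.71 and 6.11 CPM in the wild type libraries. The knockout libraries gave 4.31, 8.40 and 4.70 CPM. Wild type replicate 3 lay above 2 of the knockout libraries, so the groups overlapped. The means were 3.60 ± 2.27 and 5.81 ± 2.26 CPM (SD, n = 3 each), with a log2 fold change of 0.68 ± 0.53 (SE) that was not called (edgeR adjusted p = 0.577). Without wild type replicate 3 it was 1.29 and without knockout replicate 2 it was 0.33, in neither case called. All 6 counts of Gja5 were even, and if each tag was counted 2 times, the 28 counts of wild type replicate 2 rest on 14 tags. Gja5 exons share 165 bases with Gpr89 on the opposite strand, and the handling of strand is not given in the sources used here, so reads of both could be mixed.

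The 2 arterial connexins were set against other vessel transcripts. The 8 arterial markers, above 0 in every library, had the higher knockout sums given beside Gja1, with Sox17 as the largest part. Of these 4 had higher and 4 lower values in the knockout, and 0 were called. Cdh5, the cadherin of endothelial junctions, stood at 161 ± 61.3 and 267 ± 12.6 CPM (SD, n = 3 each; edgeR adjusted p = 0.298), and Pecam1, a general endothelial marker, at 841 ± 289 and 999.9 ± 219.9 CPM (adjusted p = 0.706). The log2 ratio of Gja5 to Gja4 counts was -0.91, -1.58 and -0.03 for wild type and -0.11, 0.52 and -0.26 for knockout libraries. Wild type replicates 1 and 2 had the lowest ratios, and the other 4 libraries lay between -0.26 and 0.52.

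Gjc1 (ENSMUSG00000034520.14, chromosome 11, 102799579 to 102819700, minus strand), the early heart and smooth muscle connexin, gave 53.9, 16.5 and 75.3 CPM in the wild type libraries. In the knockout its values were 29.8, 30.4 and 23.5 CPM. The knockout libraries lay close together, within the wild type range and above wild type replicate 2. The means were 48.6 ± 29.8 and 27.9 ± 3.80 CPM (SD, n = 3 each), with a log2 fold change of -0.80 ± 0.49 (SE) and no call (edgeR adjusted p = 0.471). Its value hung on the wild type libraries, at -1.20 without replicate 2 and -0.34 without replicate 3 (edgeR adjusted p = 0.117 and 0.803). The counts of Gjc1 were all multiples of 3, and if each tag was counted 3 times, its counting error is larger than the counts alone would give.

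Wild type replicates 3 and 1, highest for Gjc1, also had the highest sums of the 11 heart muscle markers, 371 and 92.0 CPM, while wild type replicate 2 had 40.8 CPM. The order did not hold across genotypes, since knockout replicate 2 had the least heart muscle transcript, 7.80 CPM, and more Gjc1 than wild type replicate 2. Tnnt2, cardiac troponin T, had wild type values of 46.3, 29.6 and 137.3 CPM and knockout values of 13.1, 2.40 and 14.8 CPM. Acta2, smooth muscle actin, had 369.5, 25.04 and 90.3 CPM against 27.2, 33.5 and 29.7 CPM. Neural markers, of which 5 of 7 were above 0 in every library, summed to 83.2, 59.8 and 825 CPM in wild type. In the knockout they summed to 52, 11.3 and 15.1 CPM. Wild type replicates 3 and 1 were thus the highest for the neural sum as well. The part of these tissues in the Gjc1 values was not tested.

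A code in the sample descriptions starts with 45 in 5 libraries and with 32 in wild type replicate 1, and what it stands for is not said. Within the 5 libraries of code 45 the log2 fold changes were 0.89 for Gja1, -0.08 for Gja4, 0.56 for Gja5, -0.99 for Gjb2, -0.99 for Gjb5 and -0.71 for Gjc1. Each kept the sign it had with all 6 libraries, and 0 of the 6 were called.

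The other connexins were scarce. Of 11 further genes of the family, 1 passed the filter, and 2 others, Gja10 and Gjd3, had 0 counts in all libraries. The 1 tested, Gjb1 (Cx32), was not called. Gjb1, the connexin of liver and of Schwann cells, had wild type values of 14.9, 4.88 and 10.9 CPM and knockout values of 6.12, 0 and 0.570 CPM (-2.15 ± 1.28 SE, edgeR adjusted p = 0.459). Without knockout replicate 1 its log2 fold change was -5.15 ± 1.14 (SE, edgeR adjusted p = 0.0574). Gjb1 counts were all multiples of 4. A pair of genes that did not pass the filter, named after their values were seen, was read mainly in wild type replicate 3. That library had the highest sums of neural and of heart muscle markers. It also had the most of the keratins Krt5 (8.26 CPM) and Krt14 (5.85 CPM). Gjb6 (Cx30), of inner ear, skin and astrocytes, stood there at 11.9 CPM and at no more than 0.244 CPM elsewhere. Gjd2 (Cx36), the connexin of electrical synapses, stood there at 6.06 CPM and at no more than 0.0667 CPM elsewhere. Of the pannexins, related channel proteins, Panx1 was tested, with means of 10.7 ± 4.32 and 8.80 ± 2.77 CPM in wild type and knockout (-0.29 ± 0.39 SE, SD over n = 3 each, edgeR adjusted p = 0.751).

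Proteins that anchor, move or phosphorylate connexins gave no call either. All 23 such genes in the tables passed the filter, 16 with lower and 7 with higher values in the knockout, 0 called, and a median log2 fold change of -0.20. Tjp1, the scaffold ZO-1 that binds the tail of Gja1, had wild type values of 55.3, 52.0 and 42.5 CPM and knockout values of 64.8, 73.9 and 75.7 CPM. All 3 knockout values of Tjp1 lay above all wild type values, as for 12.1% of all genes, with a log2 fold change of 0.52 ± 0.17 (SE, edgeR adjusted p = 0.237). The next smallest p was that of Cdh5. Dsp, desmoplakin of epithelial and cardiac junctions, named after its values were seen, was not called with all libraries (-1.18 ± 1.375 SE, edgeR adjusted p = 0.706). Its 102.9 CPM in knockout replicate 1 lay within the wild type range of 48 to 123.4 CPM. Without that library Dsp was called lower (-5.38 ± 0.553 SE, edgeR adjusted p = 0.0132), as were 3.27% of 14249 genes.

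For each member, the 3 transcripts with the most similar profile were found by Pearson's r of log2 CPM over the 6 libraries, among 9542 genes (9543 for Gja5) with a mean of at least 5 CPM. With 6 libraries and so many genes, values near 1 are a description only. Closest to Gja1 were Tmem43, of the inner nuclear membrane (r = 0.999), Nab2, a co-repressor of Egr factors (0.998), and Stat6, the effector of interleukin-4 (0.998). Closest to Gjb2 were Tpcn1, an endolysosomal channel (0.999), Pkp2, a desmosomal plaque protein (0.994), and Adcy7, an adenylyl cyclase (0.993). Pkp2 had wild type values of 13.7, 15.7 and 4.34 CPM and knockout values of 14.4, 0.800 and 2.07 CPM.

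Closest to Gjb5 were Ints3, an Integrator subunit (r = 0.998), Prl2c5, a trophoblast prolactin-family gene (0.997), and Dusp9, a phosphatase of MAP kinases (0.995). Pearson's r does not measure the size of a change. Ints3 varied far less than Gjb5, with wild type values of 77.5, 79.2 and 71.4 CPM and knockout values of 78.2, 58 and 63.9 CPM. Dusp9 had wild type values of 110.4, 131 and 37.1 CPM and knockout values of 108, 0.800 and 3.78 CPM. Prl2c5 has near-identical relatives, so its counts are uncertain. Gja4 was closest to Cux1 (0.982), Hivep1 (0.979) and Lck (0.979), and Gja5 to the co-repressor Tle1 (0.996), the ETS repressor Erf (0.988) and Gtf2e1 (0.98). Gjc1 was closest to Zfp422 (0.985), Klhl23 (0.985) and Ssbp3 (0.982). No gene appeared in the sets of 2 members.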

How the data were processed

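Lexogen QuantSeq libraries were made from 500 ng of total RNA per sample, per the labels' protocols. The authors deposited 1 table per library of unnormalized whole-number counts by gene symbol. Bowtie2, edgeR and mm10 are named in the submitters' processing notes; the annotation, the counting program and its use of strand are not given here. Groups came from sample titles. Genes passing filterByExpr (minimum count 10) were scaled by TMM and compared with the quasi-likelihood test of edgeR 4.0.16 (R 4.3.3), with p-values adjusted by Benjamini-Hochberg over 13848 genes and a threshold of 0.05. The SE is the size of the log2 fold change divided by the square root of F. Likeness used log2 CPM with a prior count of 2, leaving out predicted genes, and count ratios a pseudocount of 0.5. Poisson limits (95%) used counts divided by any divisor common to all 6 libraries and cover counting error only. Positions are from GENCODE M21 (mm10) and promoters from RefSeq (GRCm38.p6). The planned protein comparison was not run. Some connexins are not reported here. The fit was tested on simulated data in which all genes had the same dispersion and no library stood apart, unlike the libraries here.

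The members and gene lists were chosen with earlier results of these data known. The rule named all 6 members in every library, called list members or, with none, the 2 of smallest p, a few tissue markers, and the 3 closest profiles per member. Alternatives were other scaling factors (DESeq2, upper quartile, library size), no filter, 5 CPM in 3 libraries, DESeq2 1.42.0, limma-voom (limma 3.58.1), a replicate block, removal of the common divisor and each library left out. Figures used matplotlib 3.10.9.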

Additional observations from a re-analysis of the deposited data

How the results depend on the processing

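The 6 members had 89 values under 15 alternatives, of which 87 kept both direction and side of the threshold. Gja1 passed with DESeq2 (log2 fold change 1.06), where 1 member was called higher, and Gja4 changed sign without knockout replicate 1 (0.020; range -0.13 to 0.020 with 1 library left out). Panx1 did so without wild type replicate 3 (0.015; range -0.55 to 0.015). Gja5 had no value with the filter of 5 CPM. Over all genes 7 were lower and 0 higher, against 496 and 454 with DESeq2, while 1202 genes had an unadjusted p under 0.05 in the higher direction (edgeR). With 1 library left out, lower calls ranged from 0 to 466 and higher calls from 0 to 252, both highest without knockout replicate 1. Leaving out 1 library gave 0 to 1 lower calls among the partner genes. The cause was not tested.

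No clear pairing by replicate number was seen: deviations from the group means correlated at 0.13, -0.02 and 0.07 for numbers 1, 2 and 3. Unlike numbers gave -0.11 to 0.07. The litters are not given, so these values cannot exclude a pairing. With the replicate block 0 genes were lower and 0 members were called. Library depth limits Gja4, Gja5 and the low knockout values of Gjb2 and Gjb5.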
